A study of Mus musculus with 12 samples.

Results

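Type I interferons switch on a broad set of antiviral genes, and 43 of these interferon-stimulated genes were followed here in natural killer (NK) cells, innate lymphocytes able to kill infected or malignant cells. They were taken from a list of gene symbols, which leaves out the OAS, IFIT, p200, SLFN, GBP and IRG families, and were looked up among 56748 gene IDs. All 43 were detected and passed the filter on low counts, as did 16016 genes in all. NK cells were sorted from mouse lymph nodes, and 12 libraries in 3 groups of 4 were sequenced. The tumor-free group came from nodes of C57BL/6J mice without tumor. The lymphatic group came from tumor-bearing nodes of a diffuse large B cell lymphoma model that spreads through lymphatic vessels, and the hematogenous group from tumor-bearing nodes of a model that spreads through the blood. No treatment, genotype or transgene is named for any group, and the sources used here do not give the lymphoma cells, the ages of the animals, the strain of the tumor-bearing mice or the number of mice behind a library. The samples of a group carry the numbers 1 to 4 with no word on separate animals, so each p-value rests on a spread among samples that may be technical.

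In the type I interferon pathway, interferon alpha or beta binds the receptor made of IFNAR1 and IFNAR2, the kinases JAK1 and TYK2 are activated, and a complex that holds STAT2 and IRF9 then binds the interferon-stimulated response element (ISRE) in promoters. The induced genes sense viral RNA and DNA, block steps of viral growth, attach the ubiquitin-like protein ISG15 to other proteins, and feed back on the pathway. In NK cells, type I interferon is known to promote cytotoxicity and survival.

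Levels are given as CPM, the reads of a gene relative to the library's total after TMM scaling between libraries, and always in the order of replicates 1 to 4. A gene was called changed at an edgeR adjusted p under 0.05 over all 16016 genes. Gene counts per library ran from 6654215 to 43494812, and 3 tumor-free libraries (replicates 1, 2 and 4) were the shallowest at 6654215 to 8355021. In all libraries the NK markers were high: Ncr1, which encodes NKp46, lay between 552 and 1463 CPM, and Eomes, an NK transcription factor gene, between 405 and 839 CPM. Bulk values do not separate fewer cells of a type from less RNA per cell.

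In NK cells from lymphatic-model nodes, the interferon-stimulated genes stood above the tumor-free level almost throughout. Of the 43 genes, 32 rose (74.4%, against 2.32% of all tested genes called higher) and 0 fell (against 0.418% called lower), and the median log2 fold change was 1.46 against 0.08 over all tested genes. At an unadjusted p under 0.05, edgeR placed 40 genes higher and 0 lower, while 2189 of all 16016 tested genes passed in either direction. At an adjusted p under 0.05, DESeq2 called 33 higher and 0 lower, and voom called 30 higher and 0 lower. All tested genes called in either direction made up 4.55% with DESeq2 and 2.67% with voom. In 39 of the 43 genes (90.7%, against 7.66% of all tested genes) every lymphatic library lay above every tumor-free library. The summed level of the 43 genes was 4735 to 5283 CPM in the tumor-free libraries, 9235 to 13175 CPM in the lymphatic libraries and 4999 to 7394 CPM in the hematogenous libraries. Among the lymphatic libraries, replicate 3 was the highest for 37 genes and replicate 1 the lowest for 30. With every library thinned to the depth of the smallest, 29 of the 43 genes were called, with 2.54% of all tested genes called. With the B cell marker level as a covariate 23 were called, with 0.899% of all tested genes called against 2.74% without it, and the median log2 fold change of the 43 was 1.40.

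**Figure D1:**
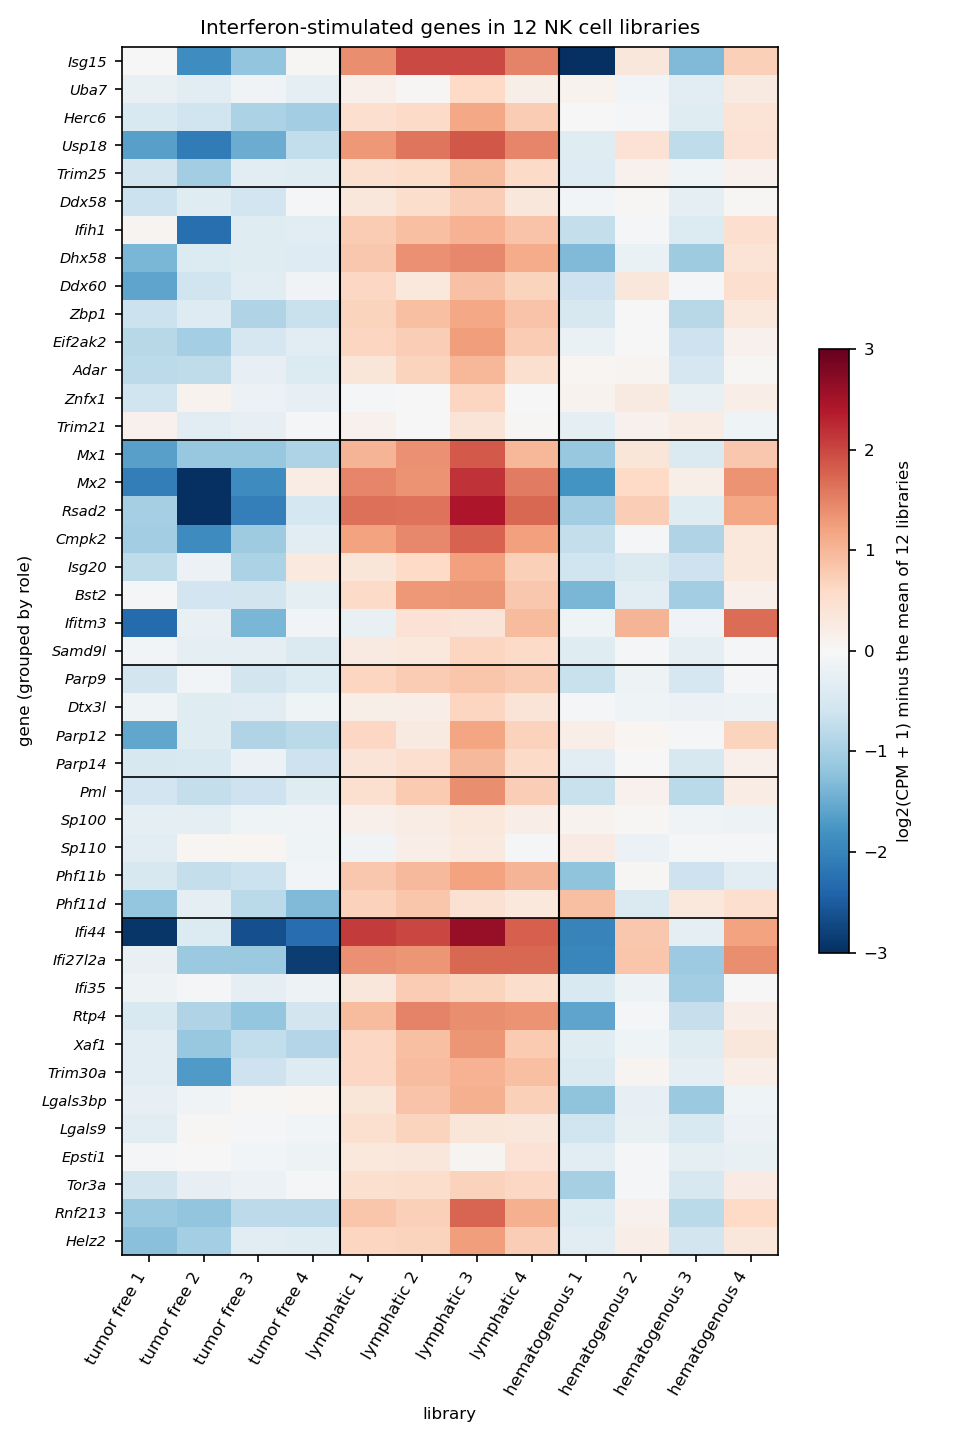
Heat map of the 43 genes (rows, grouped by role) in the 12 libraries (columns); the colour is log2(CPM + 1) minus the gene's mean over the 12 libraries. The 4 lymphatic columns are red in nearly every row, and in the hematogenous block replicates 2 and 4 are redder than replicates 1 and 3.

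RefSeq promoter windows (build GRCm38.p6, 250 bases before to 50 bases after a start) were held for 33 of the 43 genes, 41 windows in all, since some genes have more than 1. The core of the ISRE, GAAANNGAAA, was searched on both strands. It was found in 13 of the 41 windows (31.7%) and in 1131 of all 32851 windows (3.44%), and 6 of the 41 windows (14.6%) against 74 of all windows (0.225%) held it more than once. A match is a description of these letters and not a shown binding site. The following upstream stretches are examples that hold the motif before the start, with matches that begin at positions −130 to −19 relative to it. They are printed in the direction of transcription with the matches in capitals, and adjoining matches overlap in Isg15 and Bst2.
Isg15, chr4:156200845-156200926, minus strand: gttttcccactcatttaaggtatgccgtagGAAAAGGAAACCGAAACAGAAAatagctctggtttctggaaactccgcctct
Bst2, chr8:71537557-71537632, minus strand: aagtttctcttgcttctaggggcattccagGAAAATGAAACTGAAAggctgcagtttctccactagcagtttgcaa
Ddx60, chr8:61928004-61928086, plus strand: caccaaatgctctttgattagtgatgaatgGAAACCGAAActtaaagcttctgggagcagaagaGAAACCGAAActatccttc
Phf11b, chr14:59341341-59341410, minus strand: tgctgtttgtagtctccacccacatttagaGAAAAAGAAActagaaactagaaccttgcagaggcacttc
Rsad2, chr12:26456533-26456602, minus strand: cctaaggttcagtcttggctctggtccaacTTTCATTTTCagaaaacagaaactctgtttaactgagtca
Lgals9, chr11:78984940-78985009, minus strand: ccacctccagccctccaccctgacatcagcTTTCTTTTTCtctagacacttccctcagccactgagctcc
Isg15 held 3 overlapping copies, Bst2 and Ddx60 2 each, and the other stretches 1. In Ddx58, Eif2ak2, Ifih1, Ifitm3 and Trim21 matches lay only downstream of the start, and Trim30a had 1 on each side in its 2 windows. The 21 remaining genes with a window, among them the strongly risen Cmpk2 and Ifi44, had no match within it.

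ISG15 is a ubiquitin-like protein that is joined to other proteins by the activating enzyme UBA7 and, in the mouse, the ligase HERC6, and is removed by USP18, which also dampens signalling at IFNAR2. Of the 5 genes of this role 3 rose in the lymphatic libraries. Usp18 stood at 16.1, 11.4, 17.7 and 30.5 CPM in the tumor-free libraries, at 129.6, 158, 189 and 144 CPM in the lymphatic libraries and at 39.8, 69.6, 30.1 and 69.7 CPM in the hematogenous libraries. The lymphatic values lay apart from both other groups (3.04 on the log2 scale with an SE of 0.286 and an edgeR adjusted p of 4e-06 against tumor free). Hematogenous replicate 3 lay just under the highest tumor-free library and the other 3 above it. Herc6 was measured at 53.6, 48.1, 37.7 and 35.1 CPM without tumor, 105, 111, 167 and 125 CPM in the lymphatic model and 73.1, 72.0, 57.1 and 98.5 CPM in the hematogenous model. Its 3 groups did not overlap, with the hematogenous libraries between the others, and the rises were 1.54 (SE 0.189) and 0.79 (SE 0.187) on the log2 scale (edgeR adjusted p = 6.61e-05 and 0.00758). Trim25, a ubiquitin ligase that acts on RIG-I, gave 95.4, 66.9, 110.0 and 108 CPM in the tumor-free, 195, 205, 269 and 207 CPM in the lymphatic and 107, 153, 128 and 152 CPM in the hematogenous libraries. It rose by 1.20 (SE 0.162) in the lymphatic model and by 0.50 (SE 0.161) in the hematogenous model (edgeR adjusted p = 0.000169 and 0.037).

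Isg15 itself did not pass the test although its lymphatic libraries stood apart. It read 17.2, 3.99, 7.11 and 17.8 CPM in the tumor-free libraries, 46.9, 70.6, 71.5 and 49.9 CPM in the lymphatic libraries and 0.567, 22.2, 6.34 and 28.8 CPM in the hematogenous libraries (2.38 on the log2 scale with an SE of 0.788 and an edgeR adjusted p of 0.174 for the lymphatic model). Every lymphatic library was above every other library, and hematogenous replicate 1 was the lowest of the 12. All 3 groups share 1 estimate of the spread. Without hematogenous replicate 1 the same comparison gave 2.34 at an edgeR adjusted p of 0.00988, and a fit of the lymphatic and tumor-free libraries alone gave 2.34 at an edgeR adjusted p of 0.00191. Only 3 of 24 alternative fits at the same threshold called Isg15, and neither DESeq2 nor voom did. With 1 library left out its edgeR adjusted p reached 0.357. Uba7 stood at 226, 213, 244 and 217 CPM in the tumor-free and 296, 272, 398 and 301 CPM in the lymphatic libraries, again without overlap, and at 283, 249, 213 and 318 CPM in the hematogenous libraries (0.49 on the log2 scale with an SE of 0.138 and an edgeR adjusted p of 0.0642 for the lymphatic model).

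**Figure D2:**
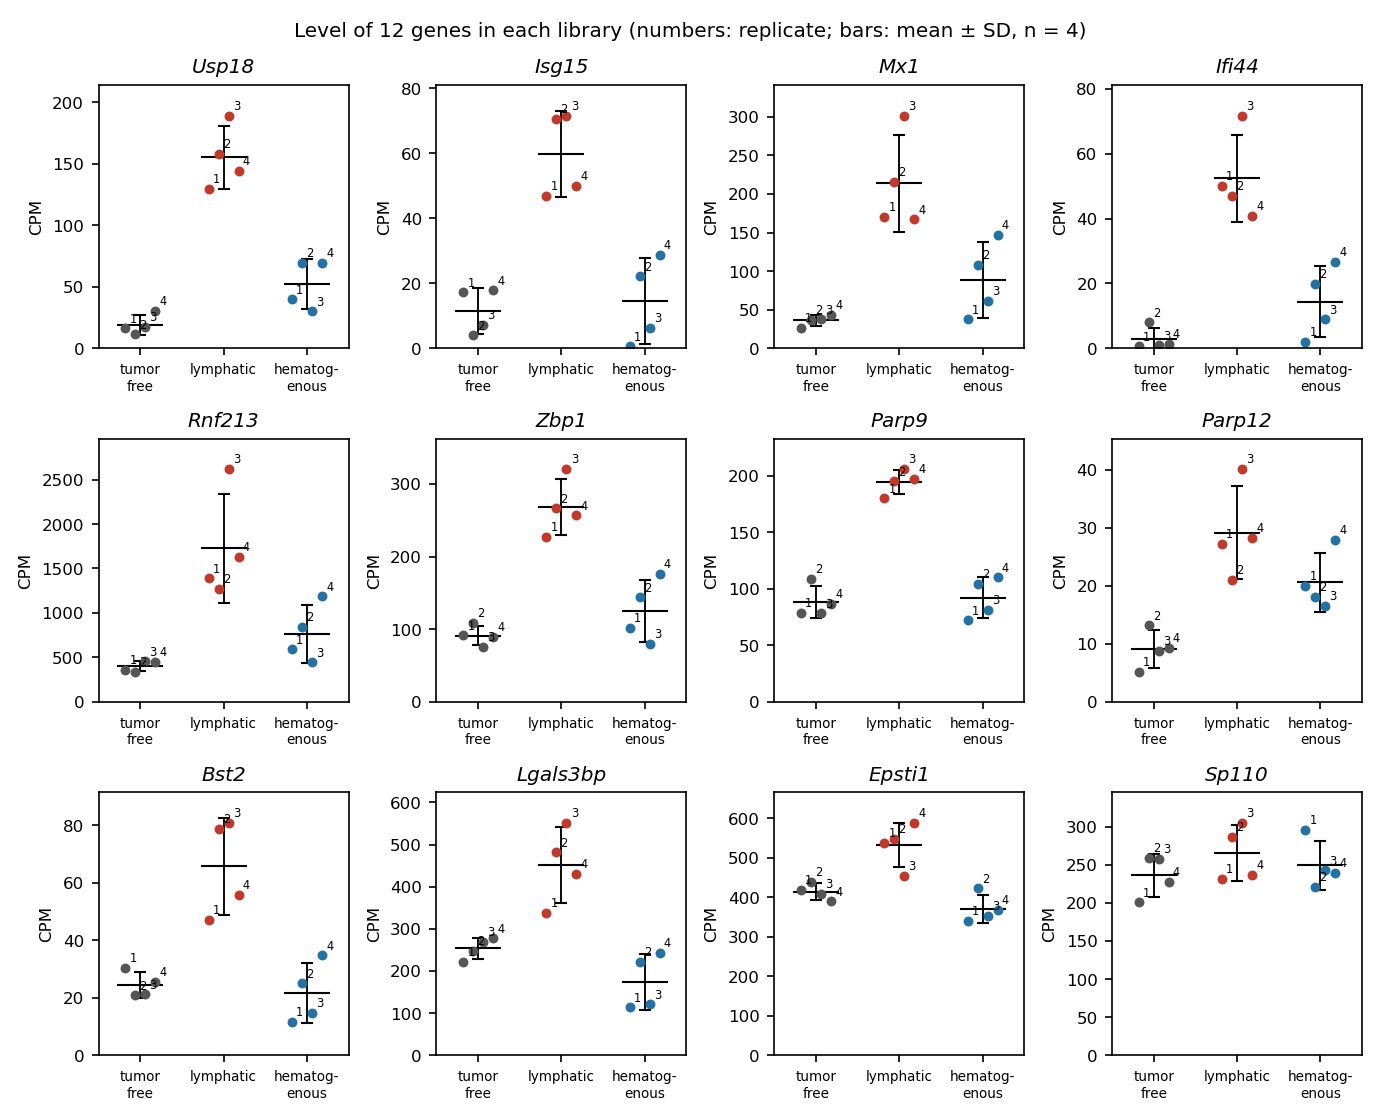
CPM of 12 of the genes in each library (y axis, from 0), with points numbered by replicate and bars for the mean ± SD of 4 libraries in each group. In Usp18, Isg15, Mx1, Zbp1 and Lgals3bp every lymphatic library lies above every library of the other groups, while in Sp110 the groups overlap.

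Nucleic acid sensors and the proteins that act with them made up 9 genes, of which 7 rose in the lymphatic libraries. Dhx58 encodes LGP2, a helicase that tunes signalling by RIG-I and MDA5, and it stood at 13.8, 27.7, 28.8 and 27.9 CPM without tumor and at 65.4, 97.8, 102 and 81.2 CPM in the lymphatic model (1.81 on the log2 scale with an SE of 0.318 and an edgeR adjusted p of 0.00243). In the hematogenous libraries Dhx58 gave 14.1, 32.0, 17.1 and 49.7 CPM, within the tumor-free range for replicates 1 and 3 and above it for replicates 2 and 4. Zbp1, the sensor of Z-form nucleic acid that can trigger necroptosis, was at 91.4, 108, 76.1 and 89.2 CPM in the tumor-free, 228, 267, 320.3 and 257 CPM in the lymphatic and 102, 144, 80.0 and 176 CPM in the hematogenous libraries. Its lymphatic libraries lay above all others, with a rise of 1.56 (SE 0.193) over tumor free. The other risen genes of this role were Eif2ak2, the kinase PKR that halts translation on double-stranded RNA, at 1.54 (SE 0.183), and Ifih1, the RNA sensor MDA5, at 1.41 (SE 0.347). Ddx60, a helicase gene, rose by 1.22 (SE 0.269), Adar, whose product edits adenosine in double-stranded RNA, by 1.18 (SE 0.164), and Ddx58, the RNA sensor RIG-I, by 0.89 (SE 0.140).

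Of this role 2 genes did not pass. Znfx1, a helicase-like gene of antiviral RNA sensing, read 65.2, 106, 87.8 and 83.3 CPM in the tumor-free libraries, 94.7, 100.2, 155 and 98.8 CPM in the lymphatic and 107, 119, 84.8 and 114 CPM in the hematogenous libraries. Apart from lymphatic replicate 3, its values overlapped between groups (edgeR adjusted p = 0.317 for the lymphatic and 0.244 for the hematogenous model). Trim21, an antibody receptor inside the cell, read 91.6, 66.6, 70.3 and 81.0 CPM in the tumor-free libraries, 91.7, 83.6, 109.6 and 86.5 CPM in the lymphatic libraries and 69.0, 92.2, 98.7 and 76.3 CPM in the hematogenous libraries and overlapped in all 3 groups. In the hematogenous model edgeR called 0 of the 9 genes, against 9.52% of all tested genes called higher and 6.87% called lower. At an unadjusted p under 0.05, edgeR placed 5 of the 9 higher and 0 lower. Over all 16016 tested genes, 4706 passed that threshold in either direction. DESeq2 called 2 of the 9 higher and voom 1, with 20.9% and 12.4% of all tested genes called in either direction.

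Of 8 effectors that act on viral growth, 5 rose in the lymphatic libraries. Rsad2, the gene of viperin, whose product blocks viral RNA synthesis, stood at 9.35, 0, 3.96 and 13.4 CPM in the tumor-free and 64.4, 63.2, 110.4 and 67.0 CPM in the lymphatic libraries (3.54 on the log2 scale with an SE of 0.767 and an edgeR adjusted p of 0.0334). Its hematogenous values of 8.98, 33.7, 15.0 and 45.4 CPM lay within the tumor-free range for replicate 1 and between the 2 other groups for replicates 2 to 4. Cmpk2, a nucleotide kinase gene that lies next to Rsad2 on chromosome 12 in RefSeq gene order, gave 17.0, 8.88, 16.6 and 28.8 CPM in the tumor-free libraries, 83.6, 98.3, 125 and 85.4 CPM in the lymphatic libraries and 21.4, 34.9, 18.6 and 45.0 CPM in the hematogenous libraries. It rose by 2.46 (SE 0.301) in the lymphatic model, with no overlap with either other group.

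Mx1, a dynamin-like GTPase gene whose product acts against influenza virus in mice that carry an intact copy, stood at 26.3, 37.1, 37.6 and 43.3 CPM without tumor and 171, 216, 301 and 167 CPM in the lymphatic model (2.57 on the log2 scale with an SE of 0.360 and an edgeR adjusted p of 0.00137). The hematogenous libraries read 37.5, 108, 61.4 and 147 CPM, with replicate 1 inside the tumor-free range and replicates 2 to 4 above it. C57BL/6 mice carry a defective Mx1 allele, so the mRNA does not stand for a working protein in that strain. Its relative Mx2 read 1.05, 0, 1.36 and 9.07 CPM in the tumor-free, 23.0, 21.0, 38.3 and 24.7 CPM in the lymphatic and 1.51, 12.1, 8.75 and 21.0 CPM in the hematogenous libraries. Every lymphatic library lay above every other library, hematogenous replicate 4 only just below the lowest of them, but the gene did not pass (edgeR adjusted p = 0.0879). Without tumor-free replicate 4 or without hematogenous replicate 1 Mx2 was called higher in the lymphatic model (lowest edgeR adjusted p = 0.00452). Only 5 of 24 alternative fits at the same threshold called it, and with 1 library left out its edgeR adjusted p reached 0.198. Bst2, the gene of tetherin, which holds budding virus at the cell surface, rose by 1.42 (SE 0.279), and Samd9l, a translation-blocking restriction factor gene, by 0.72 (SE 0.125). Isg20, an exonuclease gene, read 4.68, 7.55, 4.00 and 10.8 CPM in the tumor-free, 11.4, 13.5, 21.4 and 14.8 CPM in the lymphatic and 5.39, 6.06, 5.26 and 10.9 CPM in the hematogenous libraries and did not pass (edgeR adjusted p = 0.116 for the lymphatic model), although no lymphatic library overlapped another group. Ifitm3, which encodes a membrane protein that hinders virus entry, was low everywhere, at 0, 3.26, 0.937 and 3.74 CPM in the tumor-free libraries, 3.28, 5.69, 5.48 and 8.64 CPM in the lymphatic libraries and 3.59, 9.03, 3.61 and 14.8 CPM in the hematogenous libraries. It was the 1 gene of the 43 whose fitted level was higher in the hematogenous than in the lymphatic libraries, by 0.43 (SE 0.717) (edgeR adjusted p = 0.804).

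All 4 genes of ADP-ribosylation rose in the lymphatic libraries. Parp9 and its partner Dtx3l, which together modify histones and ubiquitin, are neighbours on chromosome 16, and Parp14, which adds single ADP-ribose units, follows Dtx3l there. Parp9 stood at 78.7, 109, 78.3 and 86.5 CPM in the tumor-free, 179.9, 195, 206 and 197 CPM in the lymphatic and 71.9, 105, 81.6 and 110.1 CPM in the hematogenous libraries. Its lymphatic values were tight and separate, and the other groups overlapped (1.15 on the log2 scale with an SE of 0.147 and an edgeR adjusted p of 0.000102 for the lymphatic and 0.07 (SE 0.146) for the hematogenous model). Dtx3l rose by 0.60 (SE 0.122) and Parp14 by 1.05 (SE 0.155) in the lymphatic model. Parp12, a zinc-finger member that blocks translation of viral RNA, was the 1 gene of this role called in the hematogenous libraries. It read 5.14, 13.2, 8.78 and 9.35 CPM in the tumor-free, 27.3, 21.1, 40.1 and 28.3 CPM in the lymphatic and 20.0, 18.1, 16.6 and 28.0 CPM in the hematogenous libraries. Every tumor-bearing library lay above every tumor-free library, and the rises were 1.69 (SE 0.289) and 1.19 (SE 0.288) (edgeR adjusted p = 0.00189 and 0.00835).

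Among 5 genes of nuclear bodies and chromatin readers, 3 rose in the lymphatic libraries. Pml, the scaffold gene of the PML nuclear body, stood at 80.6, 73.5, 77.8 and 92.8 CPM without tumor, 167, 209, 318 and 202 CPM in the lymphatic and 75.2, 132, 68.2 and 141 CPM in the hematogenous libraries (1.46 on the log2 scale with an SE of 0.219 and an edgeR adjusted p of 0.000461 for the lymphatic model). Phf11b, a PHD finger gene, read 36.8, 31.4, 32.7 and 48.6 CPM in the tumor-free and 91.8, 103, 121 and 106 CPM in the lymphatic libraries, a rise of 1.50 (SE 0.215), and 21.9, 53.4, 33.4 and 41.5 CPM in the hematogenous libraries, a difference of 0.01 (SE 0.213). Its neighbour Phf11d was near the detection limit, at 0.117, 1.04, 0.426 and 0 CPM in the tumor-free libraries, 3.02, 3.42, 2.42 and 2.11 CPM in the lymphatic libraries and 3.69, 0.858, 2.09 and 2.56 CPM in the hematogenous libraries. With all 12 libraries it was not called by edgeR or voom, and DESeq2 called it higher in both models (DESeq2 adjusted p = 0.022 and 0.0133). Without tumor-free replicate 2, edgeR called Phf11d higher in the hematogenous model (edgeR adjusted p = 0.029). Sp100, another component of the nuclear body, rose by only 0.40 (SE 0.106) from a high level. Sp110, a nearby member of the same family, was not called, at 201, 259, 258 and 227 CPM in the tumor-free, 232, 287, 305 and 237 CPM in the lymphatic and 295, 221, 243 and 239 CPM in the hematogenous libraries (edgeR adjusted p = 0.658 and 0.746).

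The other 12 interferon-induced genes held 10 risen genes in the lymphatic model. Ifi44, a GTPase-like gene, showed the largest fitted change of the 43 and was low without tumor, at 0.585, 7.99, 0.937 and 1.44 CPM. It reached 50.1, 46.9, 71.7 and 40.8 CPM in the lymphatic libraries and 1.98, 19.8, 8.94 and 26.7 CPM in the hematogenous libraries (4.39 on the log2 scale with an SE of 0.843 and an edgeR adjusted p of 0.0143 for the lymphatic model). Tumor-free replicate 2 was far above the other tumor-free libraries, and without it the log2 fold change was 5.73. Rtp4, which encodes a receptor chaperone that also binds viral RNA, stood at 32.0, 22.9, 19.0 and 29.8 CPM in the tumor-free, 86.6, 126, 118 and 113 CPM in the lymphatic and 14.0, 42.4, 27.0 and 50.6 CPM in the hematogenous libraries. The lymphatic libraries were separate from both other groups (2.1 on the log2 scale with an SE of 0.283 and an edgeR adjusted p of 0.000162). Rnf213, a very large ubiquitin ligase gene that coats bacteria inside cells, read 361, 340.0, 455 and 449 CPM without tumor and 1389, 1272, 2617 and 1626 CPM in the lymphatic model. With 589, 846, 444 and 1186 CPM in the hematogenous libraries, it rose in both models, by 2.1 (SE 0.277) and 0.93 (SE 0.268).

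Xaf1, a gene of cell death promotion, gave 55.3, 31.1, 41.8 and 37.9 CPM in the tumor-free, 109, 131, 177 and 121 CPM in the lymphatic and 54.3, 63.5, 54.0 and 88.7 CPM in the hematogenous libraries. Helz2, a helicase and coactivator gene, gave 147, 172, 278 and 271 CPM in the tumor-free libraries, 548, 559, 842 and 589 CPM in the lymphatic libraries and 276, 401, 238 and 446 CPM in the hematogenous libraries. Both rose in both models, Xaf1 by 1.69 (SE 0.201) and 0.65 (SE 0.198) and Helz2 by 1.54 (SE 0.221) and 0.65 (SE 0.217). Trim30a, a TRIM protein gene with several near relatives, rose by 1.55 (SE 0.218) in the lymphatic model, Tor3a, a torsin ATPase gene, by 0.84 (SE 0.215), and Ifi35 by 0.76 (SE 0.180). The galectin gene Lgals9, whose product binds TIM-3, stood at 133, 167, 161 and 155 CPM without tumor, 229, 263, 210.3 and 209 CPM in the lymphatic and 108, 142, 119 and 145 CPM in the hematogenous libraries. Lgals3bp, a secreted galectin-binding protein gene, read 222, 248, 269 and 277 CPM in the tumor-free libraries, 338, 481, 552 and 431 CPM in the lymphatic libraries and 113, 221, 121 and 242 CPM in the hematogenous libraries. Both rose in the lymphatic model, by 0.57 (SE 0.128) and 0.83 (SE 0.205). In the hematogenous model their differences from tumor free were −0.26 (SE 0.128) and −0.54 (SE 0.205) and did not pass (edgeR adjusted p = 0.187 and 0.0778).

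Of these 12 genes 2 were not called in the lymphatic model. Ifi27l2a, a small mitochondrial membrane protein gene, read 5.14, 2.37, 2.34 and 0 CPM in the tumor-free, 17.8, 17.0, 22.8 and 22.7 CPM in the lymphatic and 0.851, 11.9, 2.41 and 17.9 CPM in the hematogenous libraries (3.01 on the log2 scale with an SE of 0.842 and an edgeR adjusted p of 0.078 for the lymphatic model). Its lymphatic and tumor-free libraries did not overlap, and without hematogenous replicate 1 or 4 it was called (lowest edgeR adjusted p = 0.0156). Only 4 of 24 alternative fits at the same threshold called it, and with 1 library left out its edgeR adjusted p reached 0.227. Epsti1, a gene of epithelial and stromal interaction, was the most abundant of the 43 per kilobase of exon in all 3 groups. It stood at 419.9, 439, 409 and 389.7 CPM in the tumor-free, 537, 548, 455 and 589 CPM in the lymphatic and 341, 423, 353 and 368 CPM in the hematogenous libraries (0.36 on the log2 scale with an SE of 0.113 and an edgeR adjusted p of 0.104 for the lymphatic model).

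Of the 32 calls in the lymphatic model, 22 were made in every alternative fit at the same threshold. Leaving out single libraries left between 25 and 35 calls, with 255 to 634 calls over all tested genes. In these fits, each without 1 library, Ifi44 lost its call without tumor-free 1 or 4 (edgeR adjusted p up to 0.0798) and Ddx60 lost its call without tumor-free 2 (edgeR adjusted p up to 0.0527). Rsad2 lost its call without tumor-free 1 or any lymphatic library or hematogenous 2 (edgeR adjusted p up to 0.103), and Ifih1 lost its call without tumor-free 4 or any lymphatic library or hematogenous 2 or 3 (edgeR adjusted p up to 0.123). Lgals9 lost its call without tumor-free 1 or 4 or lymphatic 2 (edgeR adjusted p up to 0.0962), Lgals3bp lost its call without any tumor-free library or lymphatic 2, 3 or 4 (edgeR adjusted p up to 0.143) and Ifi35 lost its call without any tumor-free library or lymphatic 2, 3 or 4 (edgeR adjusted p up to 0.106). The weakest calls were those of Sp100 and Tor3a. Sp100 lost its call without tumor-free 1, 2 or 4 or any lymphatic library or hematogenous 2, 3 or 4 (edgeR adjusted p up to 0.168), and Tor3a lost its call without any tumor-free library or any lymphatic library or hematogenous 2 or 3 (edgeR adjusted p up to 0.128). Adding the B cell covariate ended 9 calls (edgeR adjusted p of the 9 up to 0.497), while calls over all genes went from 439 to 144. The 9 were those of Ddx60, Dtx3l, Ifi35, Ifih1, Lgals3bp, Lgals9, Rsad2, Sp100 and Tor3a. Relative to its mean, the covariate stood at −3.69 in tumor-free replicate 2, the shallowest library, and at −0.874 to 1.91 in the others. The part of that 1 library in the lost calls was not tested. None of the 43 genes turned its direction in this comparison in any of the alternatives run.

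In NK cells from hematogenous-model nodes, 8 of the 43 genes rose over tumor free (18.6%, against 9.52% of all tested genes called higher): Usp18, Herc6, Trim25, Mx1, Parp12, Xaf1, Rnf213 and Helz2. All 8 had also risen in the lymphatic model, and both comparisons use the same tumor-free libraries. The largest of these changes was that of Usp18 (1.47 on the log2 scale with an SE of 0.275 and an edgeR adjusted p of 0.00156), followed by Mx1 at 1.30 (SE 0.349). The median over the 43 genes was 0.38 on the log2 scale, against 0.08 over all tested genes, and 37 genes lay above 0 and 6 below. In 2 genes, Herc6 and Parp12, every hematogenous library exceeded every tumor-free library (4.65%, against 11.5% of all tested genes). With edgeR 0 of the 43 genes fell (against 6.87% of all tested genes called lower), and 1 was lower at an unadjusted p under 0.05, Lgals3bp, which DESeq2 called lower and voom did not.

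**Figure D3:**
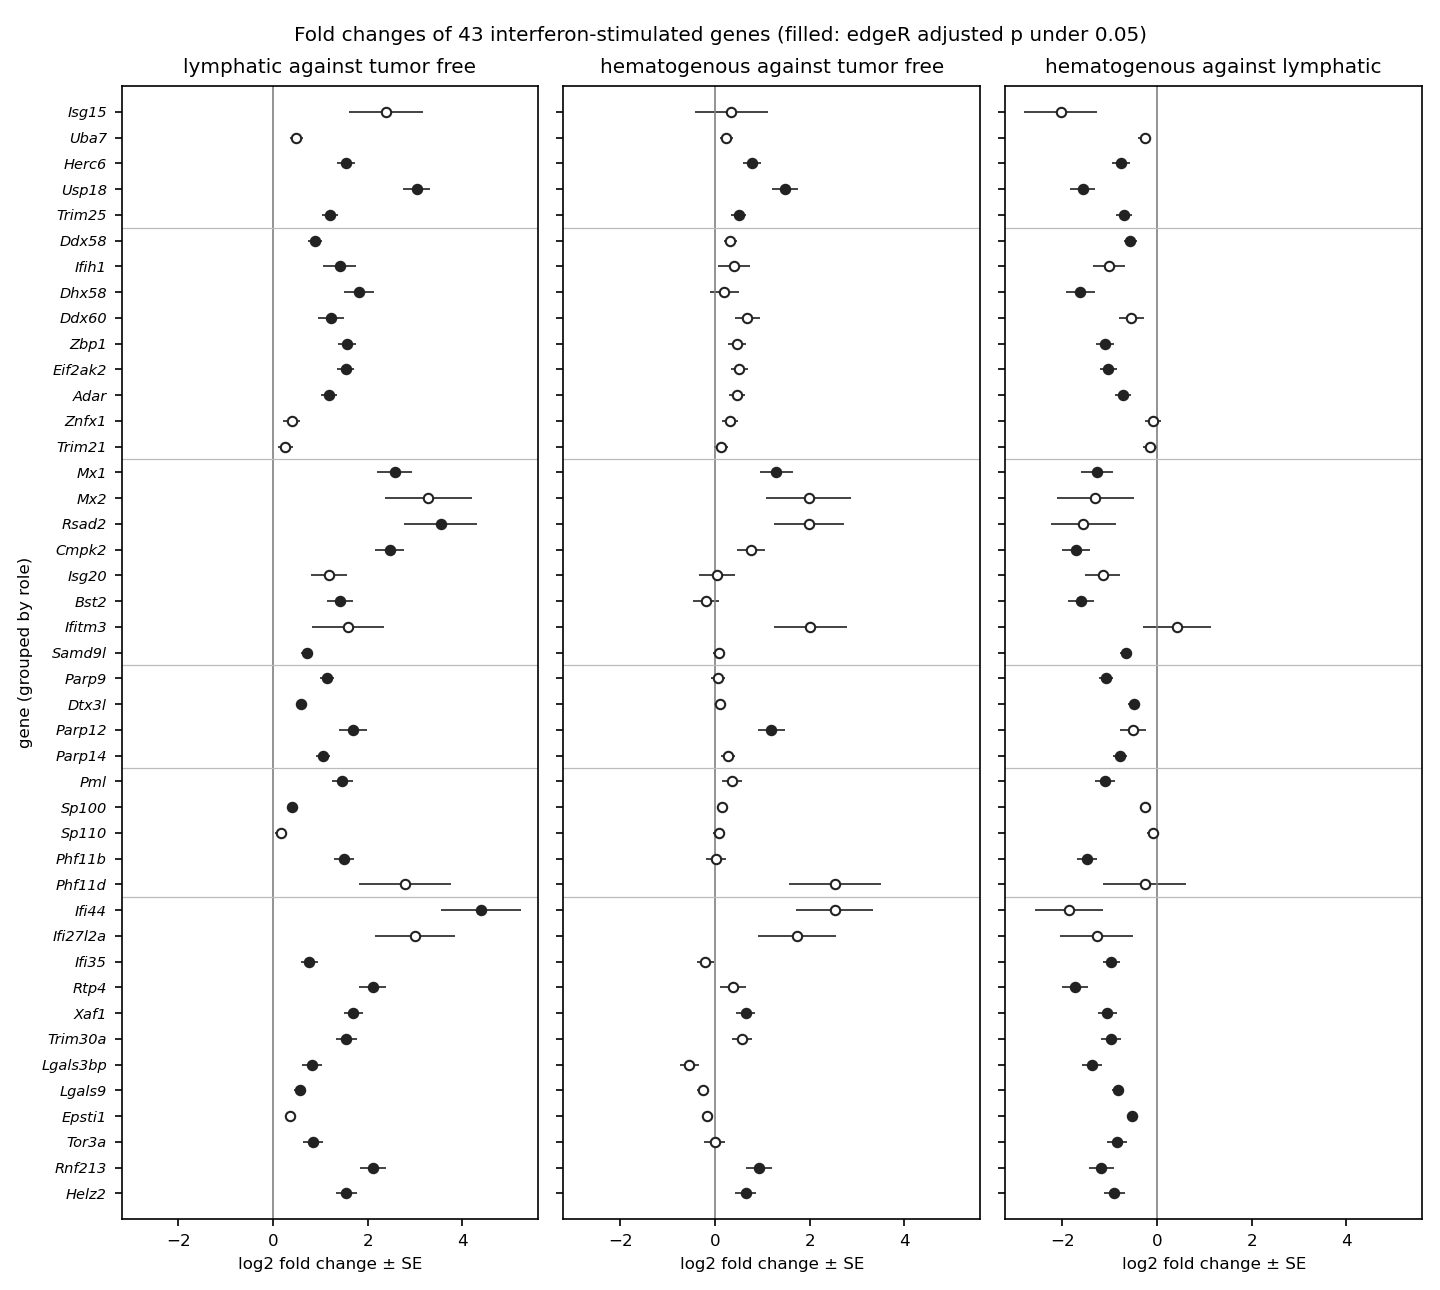
Log2 fold change ± SE of each of the 43 genes (rows, grouped by role) in the 3 comparisons (panels), with filled points for an edgeR adjusted p under 0.05. All points of the first panel lie above 0, most of the second lie between 0 and 1, and 42 of 43 in the third lie below 0.

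Leaving out single libraries moved the count of 8. It was 5 without tumor-free replicate 1 or without tumor-free replicate 2, 4 without lymphatic replicate 4 and 13 without tumor-free replicate 4. In the same order, 13.8%, 12.7%, 14.2% and 14.1% of all tested genes were called in either direction, against 16.4% with all libraries. Without hematogenous replicate 4, 4 genes were called higher and 1 lower, with 13.4% of all tested genes called. Mx1 lost its call without tumor-free 1 or 2 (edgeR adjusted p up to 0.0614) and Xaf1 lost its call without tumor-free 2, 3 or 4 or lymphatic 4 or hematogenous 4 (edgeR adjusted p up to 0.123). Rnf213 lost its call without tumor-free 1 or 2 or lymphatic 4 or hematogenous 2 or 4 (edgeR adjusted p up to 0.0737), Trim25 lost its call without tumor-free 1 or 2 or lymphatic 2 or 4 or hematogenous 2, 3 or 4 (edgeR adjusted p up to 0.0991) and Helz2 lost its call without tumor-free 1 or 2 or lymphatic 1, 2 or 4 or hematogenous 2 or 4 (edgeR adjusted p up to 0.136). The calls of Usp18, Herc6 and Parp12 were made in every alternative fit at the same threshold. DESeq2 called 14 genes higher and 1 lower, with 20.9% of all tested genes called in either direction. A fit of the hematogenous and tumor-free libraries alone called 5, with 13.6% of all tested genes called.

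The hematogenous libraries are described 1 by 1, since their values spread widely. Replicate 4 was the highest hematogenous library for 32 genes and replicate 1 the lowest for 22. Replicates 2 and 4 exceeded every tumor-free library in 32 and 35 of the 43 genes (74.4% and 81.4%), against 24.9% and 26.3% of all tested genes. In replicates 1 and 3 the same count was 12 and 10 (27.9% and 23.3%), against 30.5% and 28.8% of all tested genes. All 4 hematogenous libraries stood mostly below the lymphatic range, with 38, 39, 40 and 35 of the 43 genes under the lowest lymphatic library in replicates 1 to 4, against 39%, 29%, 31.7% and 27% of all tested genes. The coefficient of variation within the group had a median of 32.1% over the 43 genes in the hematogenous libraries, 19.1% in the lymphatic and 19.9% in the tumor-free libraries. Beside these values, gene counts were 10087837, 19625766, 15338450 and 13371013 in hematogenous replicates 1 to 4, and reads assigned to a gene made up 55.4%, 64.3%, 62.8% and 65.5% of all reads. The part of these measures in the levels of the libraries was not tested.

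**Figure D4:**
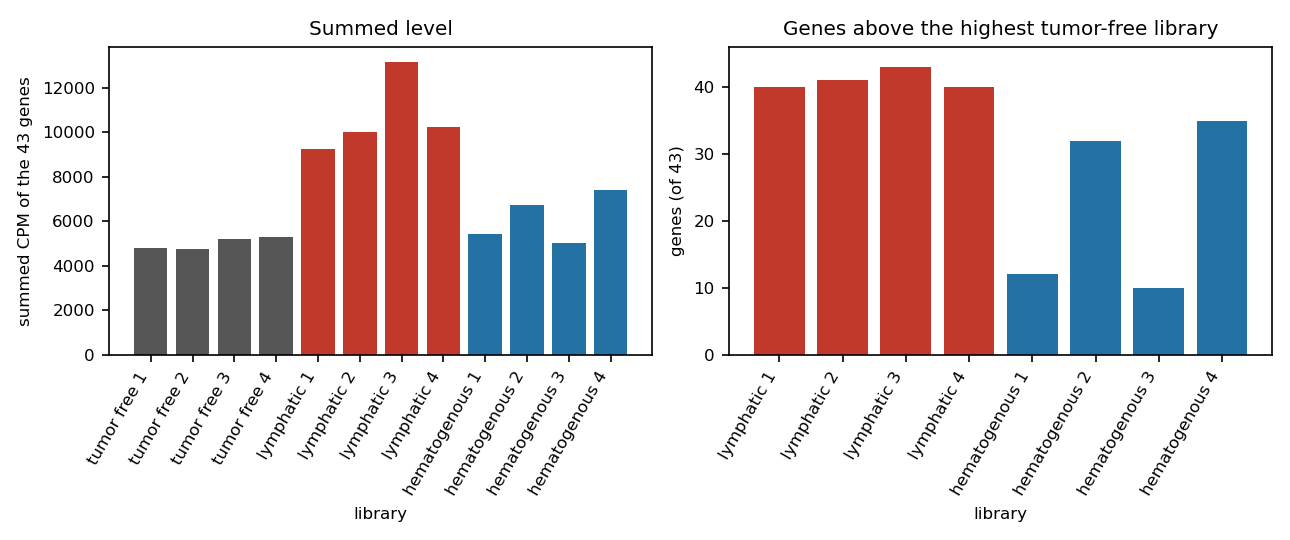
Left, summed CPM of the 43 genes in each of the 12 libraries; right, how many of the 43 genes exceed the highest tumor-free library in each tumor-bearing library. The 4 lymphatic libraries reach 40 to 43 genes, hematogenous replicates 2 and 4 reach 32 and 35, and hematogenous replicates 1 and 3 reach 12 and 10.

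Compared directly, the hematogenous libraries had lower levels of most of these genes than the lymphatic libraries. Of the 43 genes 27 were lower (62.8%, against 5.92% of all tested genes called lower) and 0 were higher (against 2.93% called higher) with edgeR. At an unadjusted p under 0.05 edgeR placed 33 lower and 0 higher, while 3474 of all 16016 tested genes passed in either direction. At an adjusted p under 0.05, DESeq2 called 29 lower and 0 higher, and voom 33 lower and 0 higher. All tested genes called in either direction made up 12.6% with DESeq2 and 18.3% with voom. The median log2 fold change was −0.97, against −0.01 over all tested genes. The groups were apart in 34 genes (79.1%, against 11.3% of all tested genes). By adjusted p the strongest differences were those of Parp9 (−1.08 on the log2 scale with an SE of 0.146 and an edgeR adjusted p of 0.00027), Phf11b at −1.48 (SE 0.214), Lgals3bp at −1.37 (SE 0.207) and Lgals9 at −0.82 (SE 0.128). Next came Rtp4 at −1.72 (SE 0.276), Cmpk2 at −1.71 (SE 0.288), Usp18 at −1.57 (SE 0.265) and Zbp1 at −1.09 (SE 0.190). Of the 8 genes that rose in both models, 7 were lower in the hematogenous than in the lymphatic libraries, and the difference of Parp12, at −0.50 (SE 0.276), did not pass (edgeR adjusted p = 0.321). Epsti1 was lower as well, with a log2 fold change of −0.52 (SE 0.113), without having been called against tumor free in either model. With scaling by library size alone, the median of all genes in this comparison shifted from −0.01 to 0.10 on the log2 scale and that of the 43 genes from −0.97 to −0.87, and 26 genes were called lower.

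Of these 27 calls, 18 were made in every alternative fit at the same threshold. Leaving out single libraries left 19 to 28, with 620 to 1572 calls over all tested genes. Ddx58, Herc6, Helz2, Tor3a and Trim25 were lost without hematogenous 1 or 3, each left out alone (edgeR adjusted p up to 0.0946). Adar lost its call without hematogenous 3 (edgeR adjusted p up to 0.0552), Rnf213 lost its call without hematogenous 1 (edgeR adjusted p up to 0.063) and Dtx3l lost its call without hematogenous 2, 3 or 4 (edgeR adjusted p up to 0.0825). Mx1 lost its call without tumor-free 2 or lymphatic 2 or 3 or hematogenous 2 or 3 (edgeR adjusted p up to 0.117).

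Markers of NK cells and of other cell types also differed between the groups. In the lymphatic model all 12 B cell markers had fitted values above 0, 10 of them at least 2-fold, with a median log2 fold change of 1.10. Of these, edgeR called 1 higher, Pax5, and placed 6 higher at an unadjusted p under 0.05, DESeq2 called 1 and voom 0. In the hematogenous model all 12 also had fitted values above 0, 4 of them at least 2-fold, with a median log2 fold change of 0.46. There edgeR and DESeq2 each called 1 higher and voom 0. Between the models edgeR, DESeq2 and voom called 0. The summed level of the 12 was 34.0 to 145 CPM in the tumor-free, 109 to 365 CPM in the lymphatic and 99.5 to 176 CPM in the hematogenous libraries. Of 8 markers of plasmacytoid dendritic cells, the specialised producers of type I interferon, 7 were tested. In the lymphatic model 0 were called by edgeR, DESeq2 or voom, with 1 higher by edgeR at an unadjusted p under 0.05. In the hematogenous model edgeR, DESeq2 and voom each called 1 higher and 0 lower. Between the models edgeR and DESeq2 called 0, and voom called 1 higher and 1 lower in the hematogenous libraries. The summed level of the 8 was 126 to 198 CPM in the tumor-free, 172 to 189 CPM in the lymphatic and 195 to 264 CPM in the hematogenous libraries. Siglech, the defining marker of these cells, lay between 0 and 7.02 CPM in the 12 libraries. Of 12 NK markers 1 was lower in the lymphatic model, Klrb1c (3 with DESeq2), 8 were lower in the hematogenous model and 6 were lower in the hematogenous than in the lymphatic libraries, with 0 called higher by edgeR. Of 11 T cell markers 0 were called in the lymphatic model by edgeR, also at an unadjusted p under 0.05, by DESeq2 or by voom. In the hematogenous libraries 5 were higher than in the tumor-free and 3 higher than in the lymphatic libraries. The summed NK markers were 14486 to 16617 CPM in the tumor-free and 9471 to 11612 CPM in the hematogenous libraries, and the summed T cell markers were 218 to 401 CPM and 503 to 684 CPM in these groups. Of 14 markers of macrophages, monocytes and dendritic cells, 11 were tested and 5 were higher in the hematogenous model, with a summed level of 223 to 268 CPM in the tumor-free and 255 to 300.5 CPM in the hematogenous libraries. Of 10 markers of other innate lymphoid cells 5 were tested, with 2 higher in the lymphatic model and 3 higher and 1 lower in the hematogenous model. Of 9 markers of stroma and endothelium 3 were tested. Pecam1 was higher in the lymphatic libraries than in the tumor-free and the hematogenous libraries. The 2 others had fitted values below 0 in lymphatic against tumor free and were not called. The median log2 fold change of the 3 in that comparison was −1.96. The summed level of that list was 113 to 129 CPM in the tumor-free, 162 to 175 CPM in the lymphatic and 118 to 139 CPM in the hematogenous libraries. The part of these cells in the levels of the 43 genes was not tested beyond the covariate for B cells.

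The genes that carry the interferon signal were read beside the 43. For the receptor, Ifnar1 stood at 217, 194, 231 and 240.3 CPM in the tumor-free, 225, 210.2, 242 and 221 CPM in the lymphatic and 228, 213, 228 and 240.4 CPM in the hematogenous libraries, and Ifnar2 at 98.6, 121, 106 and 99.6 CPM in the tumor-free libraries, 103, 94.1, 104 and 94.0 CPM in the lymphatic libraries and 95.4, 88.0, 88.3 and 76.6 CPM in the hematogenous libraries. Neither was called in any comparison (lowest edgeR adjusted p = 0.119). Of 9 receptor and kinase genes 8 were tested, and 0 were called in the lymphatic model by edgeR, DESeq2 or voom, with 1 higher by edgeR at an unadjusted p under 0.05. In the hematogenous model 2 rose. The interferon-gamma receptor gene Ifngr1 read 619, 599, 508 and 529.6 CPM in the tumor-free, 845, 814, 579.7 and 967 CPM in the lymphatic and 535, 1384, 1347 and 1433 CPM in the hematogenous libraries, a rise of 1.06 (SE 0.227) with overlap of the groups. The kinase gene Jak2 read 168, 173, 170.4 and 179 CPM in the tumor-free libraries, 209, 187, 159.6 and 229.7 CPM in the lymphatic libraries and 242, 235, 262 and 275 CPM in the hematogenous libraries and rose by 0.55 (SE 0.119).

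Among 8 transcription factor genes 4 rose in the lymphatic model and 0 fell. Irf9, the DNA-binding partner in the complex, read 109, 124, 98.9 and 105 CPM in the tumor-free libraries, 163, 182, 219 and 179 CPM in the lymphatic libraries and 52.0, 93.0, 64.2 and 116 CPM in the hematogenous libraries. It rose in the lymphatic model (0.77 on the log2 scale with an SE of 0.186 and an edgeR adjusted p of 0.0283), and its difference in the hematogenous model, −0.43 (SE 0.186), did not pass (edgeR adjusted p = 0.128). Stat2 stood at 65.2, 66.6, 87.5 and 90.0 CPM in the tumor-free, 120.2, 133, 209 and 137 CPM in the lymphatic and 87.9, 117, 83.6 and 126 CPM in the hematogenous libraries and rose by 0.95 (SE 0.181) in the lymphatic model. Irf7, the factor that amplifies interferon production, gave 89.2, 96.8, 101 and 117 CPM in the tumor-free libraries, 214, 287, 434 and 283 CPM in the lymphatic libraries and 86.0, 136, 60.2 and 184 CPM in the hematogenous libraries and rose by 1.59 (SE 0.284). Irf8, a factor of myeloid and NK cell development, gave 281, 225, 286 and 266 CPM in the tumor-free libraries, 462, 920.4, 698 and 597 CPM in the lymphatic libraries and 212, 422, 289 and 522 CPM in the hematogenous libraries and rose by 1.34 (SE 0.231). Irf2, a repressor at interferon-responsive promoters, gave 157, 162, 146 and 123 CPM in the tumor-free libraries, 176, 199, 190.1 and 175 CPM in the lymphatic libraries and 127, 149, 120.2 and 124 CPM in the hematogenous libraries and was not called against tumor free. In the hematogenous model 0 of the 8 were called by edgeR, with 1 higher and 2 lower at an unadjusted p under 0.05, 0 by DESeq2 and 1 lower by voom. Against the lymphatic libraries, Irf9, Irf7, Irf8 and Irf2 were lower in the hematogenous libraries, with log2 fold changes of −1.19 (SE 0.187), −1.38 (SE 0.281), −0.89 (SE 0.229) and −0.51 (SE 0.119).

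**Figure D5:**
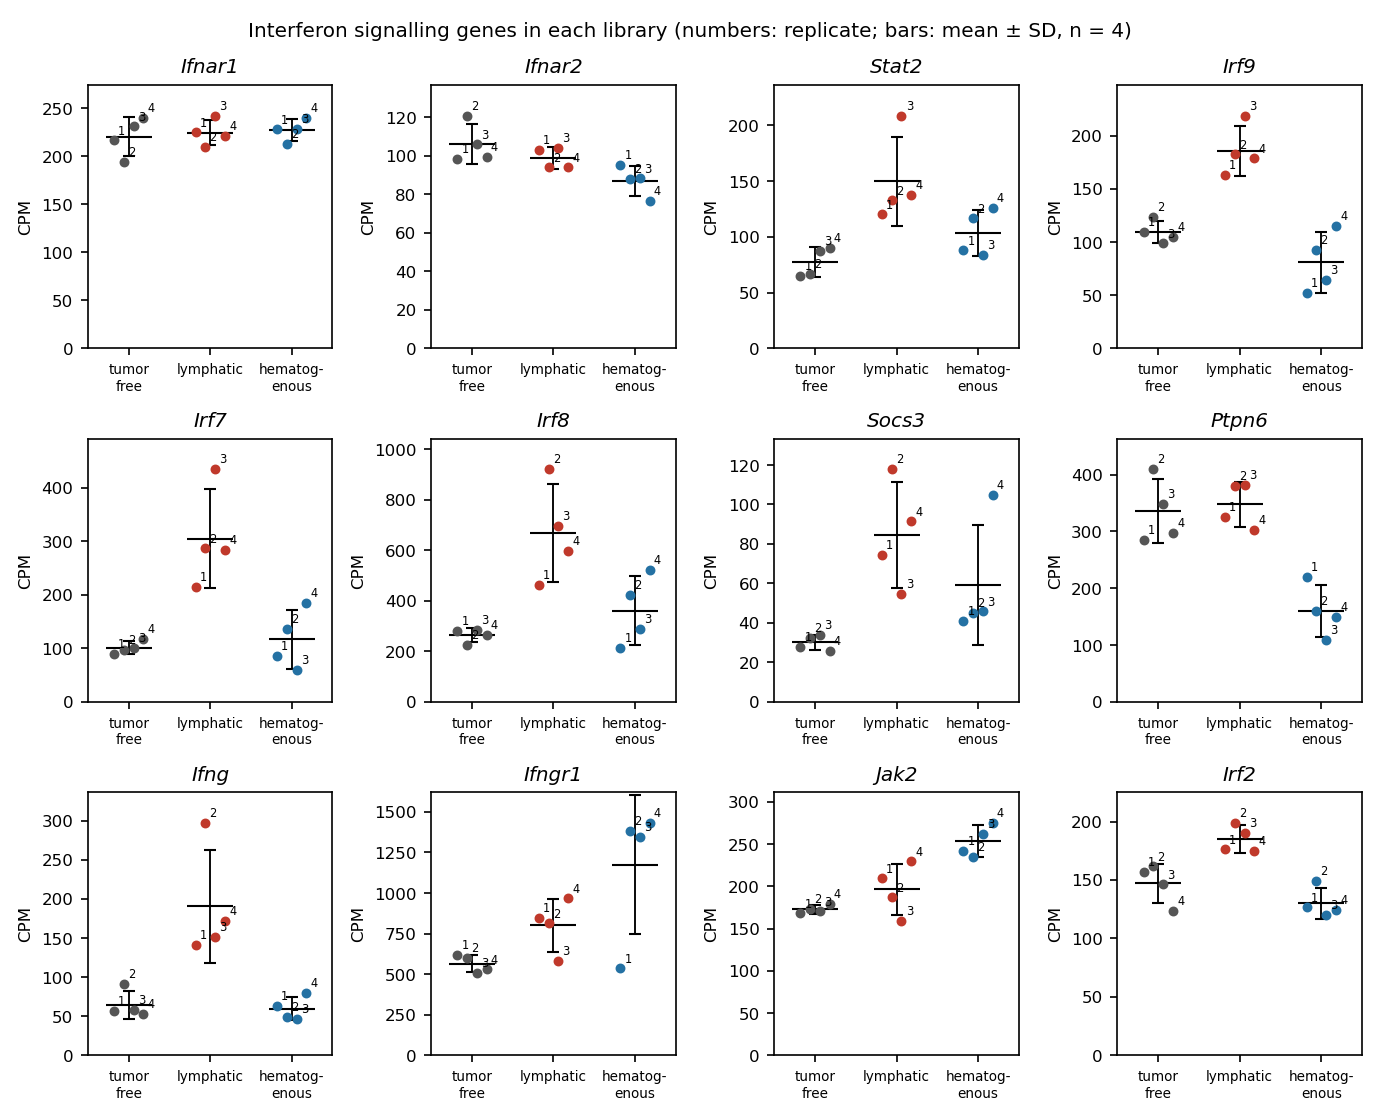
CPM of 12 interferon signalling genes in each library (y axis, from 0), with points numbered by replicate and bars for the mean ± SD of 4 libraries in each group. Neither Ifnar1 nor Ifnar2 was called in any comparison, and Irf9, Irf7 and Ifng are highest in the lymphatic libraries.

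Few reads were assigned to ligand genes apart from Ifng, and reads with several alignments, which near-identical interferon alpha genes can give, had been set aside. Of 19 type I and type III interferon genes, 13 had 0 reads in all 12 libraries, which allows up to 0.0133 CPM over the 12 libraries (3 reads, counting error only). The other 6 had 64 reads in all, 0 in the tumor-free, 59 in the lymphatic and 5 in the hematogenous libraries. Lymphatic replicate 2 held 23 reads of Ifna1, 7 of Ifna4 and the 2 reads of Ifnb1, the interferon beta gene. Lymphatic replicate 1 held 13 of Ifnk and 8 of Ifna2, replicate 4 held 5 of Ifnk and 1 of Ifnab, and replicate 3 held 0. The 5 hematogenous reads were those of Ifna2 in replicate 3. The groups held 45488096, 125188781 and 58423066 gene counts in that order. Ifng, the interferon-gamma gene, read 56.6, 91.3, 58.4 and 52.8 CPM without tumor, 141, 298, 152 and 172 CPM in the lymphatic and 63.3, 49.1, 46.9 and 80.0 CPM in the hematogenous libraries. It rose in the lymphatic model and was lower in the hematogenous than in the lymphatic libraries (1.56 (SE 0.231) and −1.67 (SE 0.231); edgeR adjusted p = 0.000417 and 0.000321). Of 7 inhibitor genes, Socs3, a feedback inhibitor of cytokine receptors, stood at 27.9, 32.6, 33.9 and 25.9 CPM without tumor, 74.6, 118, 54.6 and 91.5 CPM in the lymphatic and 40.9, 45.2, 45.8 and 105 CPM in the hematogenous libraries. It rose in both models, by 1.49 (SE 0.269) and 0.97 (SE 0.268). Ptpn6, the gene of the phosphatase SHP-1, read 286, 409, 349 and 297 CPM in the tumor-free libraries, 326, 379.8, 382 and 303 CPM in the lymphatic libraries and 219.9, 159.8, 109.6 and 149 CPM in the hematogenous libraries and fell in the hematogenous model by 1.07 on the log2 scale (SE 0.170). Of 12 upstream sensor and adaptor genes 0 were called in the lymphatic model by edgeR, DESeq2 or voom, with 3 higher by edgeR at an unadjusted p under 0.05. Against the lymphatic libraries 1 of them, the adaptor gene Myd88, was lower in the hematogenous libraries, with a log2 fold change of −0.60 (SE 0.175), at 78.7, 50.7, 59.7 and 53.4 CPM without tumor, 76.3, 85.8, 79.0 and 83.0 CPM in the lymphatic and 37.0, 58.5, 52.1 and 66.6 CPM in the hematogenous libraries.

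The 43 genes also differed in abundance. Per kilobase of exon and on the same CPM scale, the tumor-free means were led by Epsti1 at 179 CPM per kilobase, Sp100 at 102, Lgals3bp at 89.2, Samd9l at 85.6 and Lgals9 at 72.0. Among the genes called in the lymphatic model, those with the largest rises, Ifi44, Rsad2 and Usp18, came from low levels. They stood at 0.447, 1.54 and 6.79 CPM per kilobase without tumor. In the lymphatic libraries they stood at 8.54, 17.6 and 55.6 CPM per kilobase. Parp12, Ddx60 and Ifih1 were also low without tumor, at 2.28, 3.22 and 3.39 CPM per kilobase. They rose less in the lymphatic model, by 1.69, 1.22 and 1.41 on the log2 scale. Epsti1 was first in all 3 groups, and Lgals3bp was second in the lymphatic libraries at 158 CPM per kilobase. Exon lengths were taken from an annotation of the older build GRCm38 and can differ from those behind the counts.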

How the data were processed

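RNA of NK cells sorted from lymph nodes was measured in 12 libraries, 4 per group by their titles. The labels' protocols describe poly(A) selection, strand-marking libraries and single-end sequencing (120 bp). The authors deposited 1 table of whole-number counts for each library, without normalization. The submitters' processing notes name FastQC 0.11.9, Trimmomatic 0.39, HISAT2 2.1.0, HTSeq 2.0.2 and the build GRCm39; the sources used here do not give the annotation release, settings and strand option, so antisense and overlapping genes can share reads. Reads with several alignments were set aside in the files (3.85% to 6.48% of reads per library), which can lower close relatives such as the Trim30a, Phf11, Mx and interferon alpha genes. Symbols came from GENCODE M21 and matched 91.8% of IDs; all 43 genes matched. The 5 summary lines were left out. Depth ran from 6654215 to 43494812 gene counts, which limits the precision of low genes.

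Genes were tested with edgeR 4.0.16 (R 4.3.3; quasi-likelihood F test, robust, TMM, default filter by group) in 1 model of the 3 groups with 9 residual degrees of freedom, with Benjamini-Hochberg adjustment over 16016 genes; SE is the absolute log2 fold change over the square root of F. DESeq2 1.42.0 and voom with quality weights (limma 3.58.1) were among the alternatives, with other scalings and filters, a B cell covariate (mean log level of 12 markers), equal depth and each library left out. The genes, lists and alternatives were chosen with earlier results of these data known. Library by library, values are given for 30 genes. Among genes called in any comparison at a mean of at least 5 CPM, these include the 2 with the largest lymphatic change in each role. Added to them are those called in the hematogenous model and the 8 smallest p-values lower in the hematogenous than the lymphatic libraries. Isg15, Usp18 and those not called in the lymphatic model complete the list. Promoter sequences are from RefSeq, GRCm38.p6. One item of the signalling list is not reported here.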

Additional observations from a re-analysis of the deposited data

Results flagged for a closer look

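In 10 of 129 groups of 4 libraries (43 genes in 3 groups), 1 library stood apart from the other 3 by more than the Dixon limit at the 95% level allows, where chance flags about 1 group in 20. Lymphatic replicate 3 was the high library in 5 genes: Trim25 at 269 CPM against 195 to 207 CPM, Eif2ak2 at 227 CPM against 149 to 161 CPM, Znfx1 at 155 CPM against 94.7 to 100.2 CPM, Rsad2 at 110.4 CPM against 63.2 to 67.0 CPM and Helz2 at 842 CPM against 548 to 589 CPM. In the tumor-free group Ifi44 was high in replicate 2, at 7.99 CPM against 0.585 to 1.44 CPM, Mx2 was high in replicate 4, at 9.07 CPM against 0 to 1.36 CPM, and Dhx58 was low in replicate 1, at 13.8 CPM against 27.7 to 28.8 CPM. In the hematogenous group Adar was low in replicate 3, at 124 CPM against 181 to 187 CPM, and Isg20 was high in replicate 4, at 10.9 CPM against 5.26 to 6.06 CPM.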

How the results depend on the processing

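The count of the 43 genes that rose in the lymphatic model was 23 to 35 over all alternatives (32 as reported), and the count lower in the hematogenous than the lymphatic libraries was 19 to 33 (27 as reported); both stayed within 1.5 times, at an adjusted p under 0.01 too. The 8 genes called in the hematogenous model, in either direction, became 14 without a filter on low counts (13 higher, 1 lower), 15 with DESeq2 (14 higher, 1 lower), 5 with the compared groups alone, 4 with the B cell covariate, 3 at an adjusted p under 0.01, and 4 to 13 with 1 library left out. The share of all tested genes called was 16.4% as reported, 8.81% without the filter, 20.9% with DESeq2 and 13.6% with the compared groups alone. It was 5.51% with the B cell covariate, 6.92% at an adjusted p under 0.01 and 10.5% to 19.5% with 1 library left out. The cause of these shifts was not tested. Same-numbered libraries of different groups did not deviate together (12 pairs, correlations of −0.12 to 0.099; 3 of 12 libraries correlated best with their own number), and with the replicate number as a block the counts were 30, 12 (11 higher, 1 lower) and 28. In the same order, the block fit called 2.26%, 15.7% and 8.98% of all tested genes. Over all genes, scaling by library size alone moved the share of calls that were higher from 84.7% to 73.2% in the lymphatic comparison and from 33.1% to 55.8% between the models. Values near 0 that were called neither as reported nor in the alternative changed sign, given as log2 fold changes. With upper quartile scaling these were Tor3a (0.00203) in hematogenous against tumor free and Znfx1 (0.0125) and Sp110 (0.00491) in hematogenous against lymphatic. With scaling by library size alone these were Tor3a (0.00991) in hematogenous against tumor free and Znfx1 (0.0291) and Sp110 (0.0209) in hematogenous against lymphatic. With no filter on low counts these were Tor3a (0.00809) in hematogenous against tumor free. With voom with quality weights these were Bst2 (0.0134) and Tor3a (0.125) in hematogenous against tumor free and Znfx1 (0.0608) in hematogenous against lymphatic. With the compared groups alone these were Phf11b (−0.00136) in hematogenous against tumor free. With the replicate block these were Phf11b (−0.0283) in hematogenous against tumor free. With the B cell covariate these were Ifih1 (−0.00345) and Tor3a (0.0232) in hematogenous against tumor free. With equal depth these were Isg20 (−0.0397) in hematogenous against tumor free and Phf11d (0.343) in hematogenous against lymphatic. Leaving out 1 library also turned such values, whose ranges over the 12 fits follow. For hematogenous against tumor free it happened to Isg20 (−0.261 to 0.372), Phf11b (−0.203 to 0.202), Tor3a (−0.220 to 0.182), Bst2 (−0.504 to 0.0207), Sp110 (−0.00682 to 0.138), Isg15 (−0.205 to 0.739), Dhx58 (−0.207 to 0.424) and Parp9 (−0.0263 to 0.193). For hematogenous against lymphatic it happened to Znfx1 (−0.157 to 0.112), Sp110 (−0.158 to 0.00866), Phf11d (−0.540 to 0.0573) and Ifitm3 (−0.0454 to 0.707). Mx2, Rsad2, Ifi27l2a, Ifitm3 and Phf11d had 0 reads in 1 tumor-free library; what depth has to do with these zeros was not tested.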
